A study of Homo sapiens with 16 samples.

Results

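The regulator of G protein signalling genes RGS1, RGS2, RGS3, RGS10, RGS12, RGS14, RGS16 and RGS19 were followed in NCI-H929 cells, an established human multiple myeloma line. They are 8 of the 57500 genes in the deposited count tables. They were picked by symbol from earlier results on these libraries, in which RGS3 was lower with the p300 degrader. Their values in the degrader comparison are therefore given as a description, with no test. All 8 had enough counts to enter both fits.

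Bulk RNA-seq was done on 16 libraries in 4 groups of 4. Cells exposed for 6 h to 3 nM of the compound labelled p300 degrader 27 were set against cells given DMSO, the vehicle. Cells labelled p300 KO were set against cells labelled NTC, the control of that experiment. The labels give neither the way the knockout was made nor whether it is a clone or a pool, and they do not say what the replicates are, so p-values measure the spread between these libraries, which may be technical. All libraries carry the same batch label, which does not tell whether the degrader and knockout experiments were handled together. p300 is a histone acetyltransferase and transcriptional coactivator encoded by EP300.

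Heterotrimeric G proteins relay signals from cell surface receptors. Binding of a ligand makes the receptor exchange GDP for GTP on the alpha subunit, and the signal lasts until that GTP is hydrolysed. RGS proteins carry a conserved RGS domain that speeds up this hydrolysis and so ends the signal. In lymphocytes they are best known for limiting the response to chemokines, which act through receptors coupled to Gi. The members fall into 3 subfamilies. RGS1, RGS2, RGS3 and RGS16 are of the R4 type, mostly small proteins with little outside the RGS domain. RGS10, RGS12 and RGS14 are of the R12 type, and RGS19 is of the RZ type.

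The genes lie on 6 chromosomes (GRCh38, as in the deposited tables). RGS16 (ENSG00000143333, chr1:182598623-182604408, minus strand), RGS1 (ENSG00000090104, chr1:192575727-192580031, plus strand) and RGS2 (ENSG00000116741, chr1:192809039-192812283, plus strand) are on chromosome 1. RGS1 and RGS2 are 229008 bases apart. RGS3 (ENSG00000138835) spans chr9:113444731-113597743 on the plus strand. RGS10 (ENSG00000148908) is at chr10:119499828-119542708 on the minus strand, and RGS12 (ENSG00000159788) is at chr4:3293028-3439913 on the plus strand. RGS14 (ENSG00000169220) is at chr5:177357837-177372601 on the plus strand, and RGS19 (ENSG00000171700) is at chr20:64073181-64079988 on the minus strand. No member shares exonic bases with another annotated gene. Counts are per gene: RGS3 has 30 annotated transcript starts and RGS12 has 22, and the values do not tell which start was used.

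RefSeq places 18 transcription starts in the members, all of which matched by symbol. The 250 bases before the start are shown for the chromosome 1 genes RGS1, RGS16 and RGS2, and for the outermost RGS3 start, chosen for their values with the degrader. RGS1 and RGS3 were lower there, RGS16 was lower without overlap once degrader replicate 2 was left out, and RGS2, the neighbour of RGS1, overlapped between the groups. RGS14, lower by a smaller amount, is not shown. The windows are from RefSeq GRCh38.p14, written 5′ to 3′ on the strand of the gene. Capitals mark a TATA box (TATAAA) or a GC box (GGGCGG, or CCGCCC when it is on the other strand). They are RGS1 at chr1:192575523-192575772, plus strand; RGS16 at chr1:182604390-182604639, minus strand; RGS2 at chr1:192808789-192809038, plus strand; and RGS3 at chr9:113444480-113444729, plus strand.
RGS1: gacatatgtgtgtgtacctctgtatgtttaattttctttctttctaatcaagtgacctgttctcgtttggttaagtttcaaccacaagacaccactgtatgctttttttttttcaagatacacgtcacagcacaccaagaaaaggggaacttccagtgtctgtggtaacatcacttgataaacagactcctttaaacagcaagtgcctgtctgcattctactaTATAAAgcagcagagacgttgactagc
RGS16: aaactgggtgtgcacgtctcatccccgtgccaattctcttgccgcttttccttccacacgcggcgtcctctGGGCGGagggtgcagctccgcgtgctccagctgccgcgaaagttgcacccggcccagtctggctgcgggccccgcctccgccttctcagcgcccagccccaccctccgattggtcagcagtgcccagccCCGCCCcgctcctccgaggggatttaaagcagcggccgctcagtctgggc
RGS2: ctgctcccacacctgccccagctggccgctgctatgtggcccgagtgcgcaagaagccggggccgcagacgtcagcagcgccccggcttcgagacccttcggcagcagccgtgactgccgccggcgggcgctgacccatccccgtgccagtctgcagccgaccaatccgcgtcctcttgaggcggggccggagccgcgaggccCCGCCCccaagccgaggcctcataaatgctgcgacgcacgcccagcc
RGS3: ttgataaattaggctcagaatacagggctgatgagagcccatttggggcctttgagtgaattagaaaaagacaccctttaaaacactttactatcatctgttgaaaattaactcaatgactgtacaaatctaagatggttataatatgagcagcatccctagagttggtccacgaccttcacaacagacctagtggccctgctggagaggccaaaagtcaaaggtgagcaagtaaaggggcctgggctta

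The RGS1 window has a GC content of 39.2% and a TATA box whose first base lies 27 bases before the RefSeq start. The RGS16 window has a GC content of 68.4% and 2 GC boxes. The RGS2 window has a GC content of 72.8% and 1 GC box. The RGS3 window shown has a GC content of 42.8% and none of the motifs searched. The search covered both strands for the cyclic AMP response element TGACGTCA, the AP-1 site TGANTCA, the E-box CACGTG, the GAS element TTCNNNGAA, the GC box and the TATA box. Over 35116 RefSeq windows of the same length, 10.7% held a TATA box, 42.6% a GC box, 6.34% an E-box, 6.57% an AP-1 site, 6.57% a GAS element and 1.65% a cyclic AMP response element. The other RGS3 windows held GC boxes, a TATA box and an E-box. A match is a run of letters, not evidence of binding.

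Libraries held 12590308 (degrader replicate 2) to 23120350 counts. Genes of the mitochondrial genome took 64.9% of the counts in degrader replicate 2 and 47.7% in p300 KO replicate 1, against 5.99% to 23.5% in the other 14 libraries. These 2 libraries stand apart, so each RGS gene and each count of called genes is given with and without them. Without degrader replicate 2 the mitochondrial share still moved with treatment (13.4% to 23.5% in DMSO, 5.99% to 6.96% with the degrader), and its part in the results was not tested. EP300 itself measured 7.47, 6.86, 6.93 and 7.12 FPKM in the NTC libraries and 3.18, 2.88, 2.56 and 2.81 FPKM in the p300 KO libraries. FPKM here is the count divided by gene length and by the TMM-scaled library size, so it can be compared between genes. EP300 RNA was lower than in NTC by 1.25 ± 0.11 (SE) on the log2 scale (log2 fold change −1.25, adjusted p = 0.00022, edgeR quasi-likelihood test). The value was −1.37 ± 0.06 without p300 KO replicate 1, so the knockout libraries carried less of the transcript than NTC and not none. In DMSO, the control of the other experiment, EP300 ranged from 3.14 to 3.99 FPKM and overlapped the p300 KO libraries. That difference between controls was not tested. With the degrader, which acts on the protein, EP300 RNA was not lower (log2 fold change 0.79 ± 0.35, adjusted p = 0.249, and 0.24 ± 0.09 without degrader replicate 2, adjusted p = 0.0531, edgeR). It ranged from 4.33 to 10.6 FPKM, above every DMSO library, as for 6.34% of all genes in that direction. As TPM the groups overlapped, with degrader replicate 2 at 5.26 and DMSO at 5.79 to 8.77. The 11 plasma cell markers summed to 3810 to 8900 FPKM, led by JCHAIN, so the libraries carried the RNA of the labelled cell type. The 7 lists of markers of other cell types were each at 25.5 summed FPKM or less in every library, with LUM and KRT19 at 0 counts in all 16.

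Levels separated the members into 2 tiers. RGS16, RGS19, RGS14 and RGS10 were the abundant ones, and RGS1, RGS3, RGS12 and RGS2 were each under 3 FPKM in every library. In DMSO the order by mean was RGS16 (82.1 FPKM), RGS19 (32.1), RGS14 (29.9), RGS10 (26.3), RGS1 (1.83), RGS3 (1.80), RGS12 (0.612) and RGS2 (0.487). The ranges over 4 libraries overlapped between RGS19 and RGS14, between RGS14 and RGS10, between RGS1 and RGS3, and between RGS12 and RGS2, so those neighbours were not separated by their spread. In NTC the order began with RGS19 (45.7 FPKM) and RGS16 (44.2), whose ranges overlapped, and RGS14 (34.9) and RGS10 (18.8) followed. RGS16 made up 43.5% to 50.2% of the summed FPKM of the 8 genes in DMSO and 25.8% to 32.6% in NTC. These control groups belong to separate experiments, and the difference between them was not tested.

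**Figure D1:**
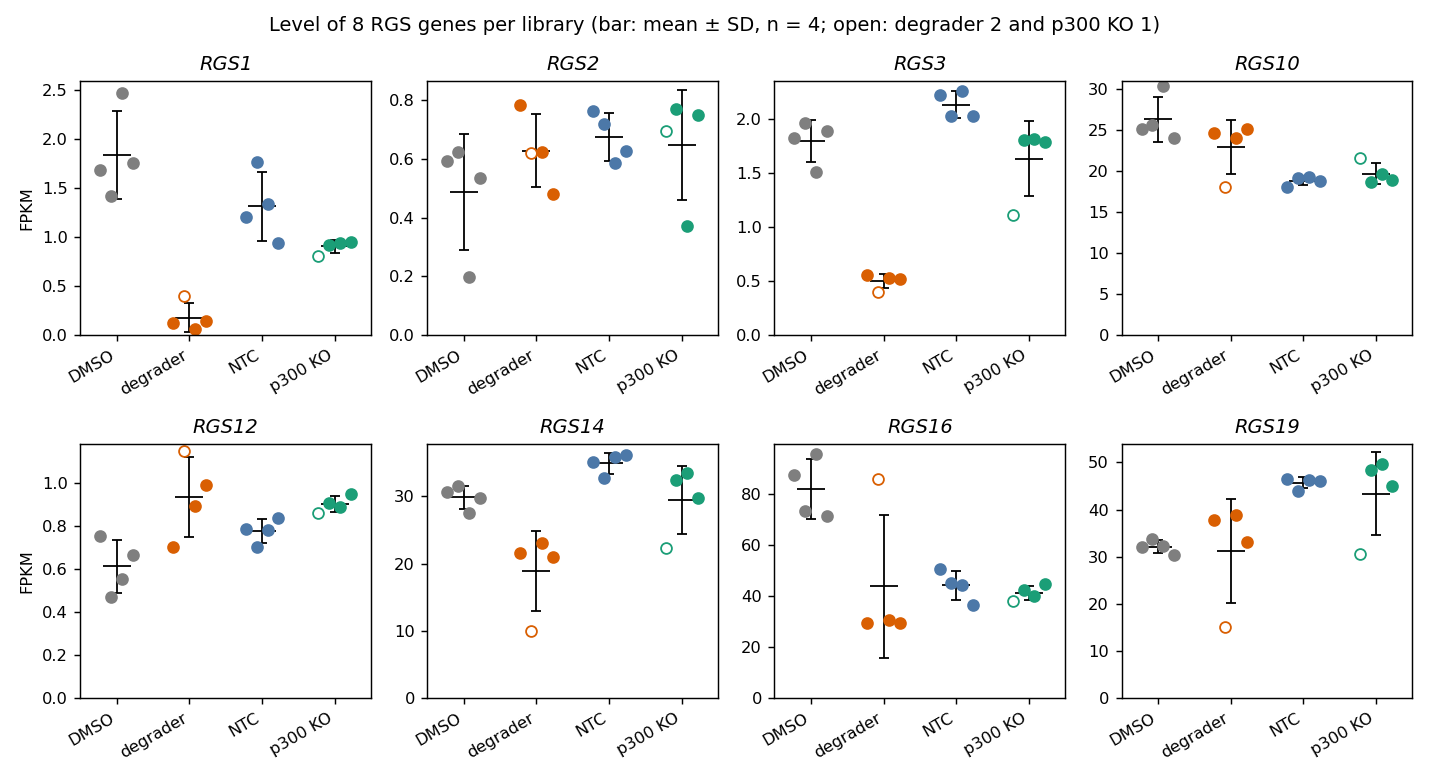
FPKM (vertical axes, from 0) of the 8 RGS genes in each library, by group. Filled and open circles are single libraries, open circles are degrader replicate 2 and p300 KO replicate 1, and bars are the mean ± SD of 4 libraries. RGS1 and RGS3 lie lower in all 4 degrader libraries than in any DMSO library, while RGS16 in degrader replicate 2 (86.0 FPKM) lies among the DMSO libraries on this scale.

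With the degrader, 3 of the 8 genes (RGS1, RGS3 and RGS14) were lower in every degrader library than in every DMSO library, and none was higher in that sense. Over all 15872 genes tested, 9.92% were lower and 6.34% higher without overlap. Without degrader replicate 2, RGS16 joined them and 4 of 8 were lower, where 19.9% of all genes were. The median log2 fold change over the 8 genes was −0.42, or −0.33 without that library, against 0.05 and −0.04 over all genes. The contrast chose the members, so nothing is read from these counts.

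RGS1, which blunts B cell migration toward chemokines, had the deepest loss. It measured 1.68, 1.42, 2.47 and 1.76 FPKM in DMSO replicates 1 to 4 and 0.120, 0.395, 0.0612 and 0.142 FPKM in degrader replicates 1 to 4. The groups were far apart, and the highest degrader value came from replicate 2. The counts behind them were 116 to 172 in DMSO and 5 to 11 with the degrader, so the fold is imprecise. On the log2 scale the change was −3.59 ± 0.49 (SE), 12.1-fold lower, and −4.13 ± 0.29 without degrader replicate 2, 17.5-fold lower.

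RGS3, a multi-isoform member whose longer forms carry further domains, was lower by a similar amount in all 4 degrader libraries. It measured 1.83, 1.96, 1.51 and 1.89 FPKM in DMSO and 0.552, 0.401, 0.529 and 0.520 FPKM with the degrader. Every degrader library was below every DMSO library, replicate 2 being the lowest. Its log2 fold change was −1.82 ± 0.12, 3.54-fold lower, and −1.80 ± 0.12 without replicate 2, so the library that stands apart hardly moved it.

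RGS16, the most abundant member in DMSO, acts on Gi and Gq alpha subunits. It measured 87.7, 73.4, 95.9 and 71.3 FPKM in DMSO and 29.3, 86.0, 30.6 and 29.4 FPKM with the degrader. On this scale degrader replicate 2 sat within the DMSO range, while the other 3 degrader libraries lay close together and far below it. Over all libraries its log2 fold change was −0.82 ± 0.42, and it was −1.52 ± 0.11, 2.86-fold lower, without replicate 2. This 1 library thus sets the size of the RGS16 change, and its place depends on the scaling. As TPM, each library sums to the same total, mitochondrial genes included, and these took 64.9% of the counts in degrader replicate 2. This leaves less of the total to all other genes there. On that scale RGS16 was 151 to 162 in DMSO, 42.6 in degrader replicate 2 and 75.9 to 79.2 in the other 3. All 4 thus lay below DMSO. RGS10 and RGS19 were also far lower as TPM in degrader replicate 2 (8.94 and 7.47) than in the other degrader libraries (62.5 to 64.9 and 85.9 to 100.0). With total counts in place of TMM the log2 fold change over all libraries was −1.27. The share of RGS16 in the summed FPKM of the 8 genes was 25.4% to 26.5% in degrader replicates 1, 3 and 4 and 65.3% in replicate 2.

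RGS2, the R4 member known for its preference for Gq alpha subunits, was near the lower limit of these libraries, at 7 to 39 counts. It ranged from 0.197 to 0.625 FPKM in DMSO and from 0.482 to 0.784 FPKM with the degrader, and the groups overlapped. A log2 fold change of 0.37 ± 0.37, or 0.30 ± 0.35 without replicate 2, has an error as large as the value. Of the 10 RGS genes on chromosome 1, RGS18, RGS21 and RGS13 lie near RGS1 and RGS2 and had at most 1, 0 and 14 counts in any library. RGS8, next to RGS16, had at most 2.

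Among the R12 members, RGS14, a scaffold that also binds inactive Gi through a GoLoco motif, was moderately lower. It measured 30.7, 31.6, 27.6 and 29.7 FPKM in DMSO and 21.6, 9.95, 23.0 and 21.0 FPKM with the degrader. All 4 degrader libraries were below the DMSO range, replicate 2 by far the lowest. As TPM the groups overlapped, at 46.5 to 69.5 in DMSO and 4.92 to 59.5 with the degrader. The log2 fold change was −0.67 ± 0.20, and −0.50 ± 0.08 without replicate 2.

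RGS12, the large R12 member that also carries a GoLoco motif, went the other way. It measured 0.756, 0.472, 0.555 and 0.666 FPKM in DMSO and 0.704, 1.15, 0.893 and 0.990 FPKM with the degrader. The groups overlapped through degrader replicate 1. In log2 terms it was higher by 0.63 ± 0.23, and 0.45 ± 0.16 without replicate 2.

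RGS10, a compact R12 member, and RGS19, an RZ member first described as a partner of Gi, stayed within overlapping ranges as FPKM. RGS10 ranged from 24.1 to 30.4 FPKM in DMSO and from 18.1 to 25.1 FPKM with the degrader, with a log2 fold change of −0.18 ± 0.11. RGS19 ranged from 30.3 to 33.8 FPKM in DMSO and from 15.1 to 38.8 FPKM with the degrader, the lowest value being replicate 2. Its log2 fold change was −0.05 ± 0.22 over all libraries and 0.13 ± 0.08 without that library.

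**Figure D2:**
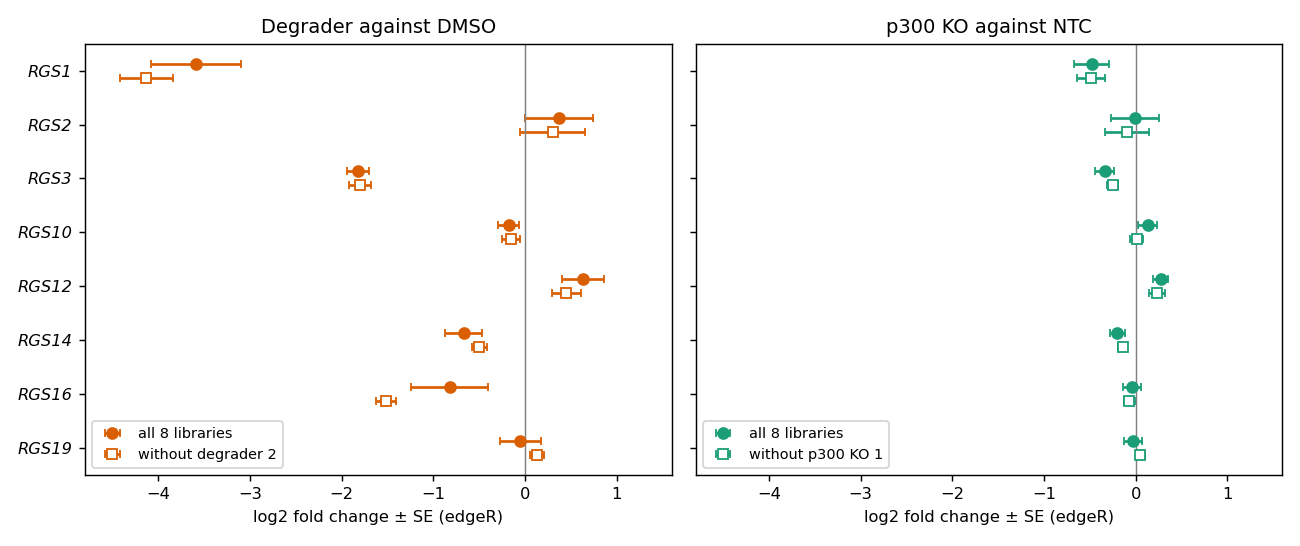
Log2 fold changes of the 8 RGS genes (horizontal axes) with their SE from edgeR, for the degrader (against DMSO) and the knockout (against NTC). Circles use all 8 libraries of a comparison and open squares leave out degrader replicate 2 or p300 KO replicate 1. With the degrader RGS1 and RGS3 lie at −3.59 and −1.82, and in the knockout no member lies beyond 0.48 on either side of 0 over all libraries.

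In the p300 KO comparison, whose libraries did not choose the members, 0 of 8 genes passed an adjusted p of 0.05 in edgeR's quasi-likelihood test, and 17.0% of the 17350 genes tested did. DESeq2 also called 0 of 8 and 17.5% of its genes. In edgeR 4 of 8 had an unadjusted p under 0.05. The share of all genes at an unadjusted p under 0.05 is not given, here or for the lists below, so such counts have no background. Without p300 KO replicate 1, 4 of 8 passed: RGS1, RGS3 and RGS14 were lower and RGS12 was higher, where 40.9% of all genes passed, 19.1% higher and 21.8% lower. The share of members called was thus near that of all genes once the library was left out. The median log2 fold change of the 8 genes was −0.04, or −0.09 without that library, against 0.02 and 0.00 over all genes.

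RGS3 measured 2.22, 2.03, 2.26 and 2.03 FPKM in NTC and 1.11, 1.81, 1.82 and 1.79 FPKM in p300 KO. Every knockout library was below every NTC library, and replicate 1 was well below the other 3. Non-overlap in that direction held for 18.0% of all genes. The log2 fold change was −0.34 ± 0.10 (adjusted p = 0.054, edgeR), and −0.25 ± 0.06 without replicate 1 (adjusted p = 0.00184, edgeR), a 1.19-fold difference.

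RGS12 was the member higher in the knockout. It measured 0.787, 0.705, 0.782 and 0.837 FPKM in NTC and 0.862, 0.910, 0.891 and 0.949 FPKM in p300 KO, and the groups did not overlap, as for 8.55% of all genes in that direction. Its log2 fold change was 0.27 ± 0.08 (adjusted p = 0.052, edgeR) and 0.23 ± 0.09 without replicate 1 (adjusted p = 0.0284, edgeR).

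RGS1 measured 1.20, 1.77, 1.34 and 0.939 FPKM in NTC and 0.802, 0.923, 0.944 and 0.951 FPKM in p300 KO. The groups overlapped only through NTC replicate 4. The log2 fold change was −0.48 ± 0.19 (adjusted p = 0.102, edgeR) and −0.49 ± 0.15 without p300 KO replicate 1 (adjusted p = 0.00771, edgeR), on 43 to 179 counts. RGS14 measured 35.1, 32.7, 35.8 and 36.2 FPKM in NTC and 22.3, 32.5, 33.5 and 29.8 FPKM in p300 KO, overlapping through NTC replicate 2. Its log2 fold change was −0.20 ± 0.08 (adjusted p = 0.133, edgeR) and −0.14 ± 0.05 without replicate 1 (adjusted p = 0.0302, edgeR).

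RGS16, which was 2.86-fold lower in 3 degrader libraries, measured 50.6, 45.3, 44.4 and 36.6 FPKM in NTC and 38.2, 42.2, 40.1 and 44.7 FPKM in p300 KO. The groups overlapped, with a log2 fold change of −0.04 ± 0.10 (adjusted p = 0.787, edgeR). RGS19, RGS10 and RGS2 also overlapped between the groups, with log2 fold changes of −0.03 ± 0.10, 0.13 ± 0.10 and −0.01 ± 0.26 (adjusted p = 0.848, 0.413 and 0.979, edgeR). RGS19 was lower in replicate 1 of the knockout, at 30.6 FPKM, than in its other replicates, at 44.9 to 49.6 FPKM. The 2 comparisons differ in agent, time and controls. The difference between them was not tested for the members, since the degrader values chose them.

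Whether groups overlapped also turned on the scale. As TPM, RGS1, RGS3 and RGS16 were lower without overlap with the degrader, and RGS1, RGS3 and RGS14 in the knockout. For RGS1 in the knockout the gap was very small, between 2.61 in p300 KO and 2.62 in NTC, and as FPKM the groups overlapped. RGS12 overlapped in the knockout as TPM unless p300 KO replicate 1 was left out. Without degrader replicate 2, RGS10 was higher without overlap with the degrader as TPM (62.5 to 64.9, DMSO 46.5 to 56.2). So were RGS12 (1.85 to 2.56, DMSO 0.933 to 1.41) and RGS19 (85.9 to 100.0, DMSO 54.3 to 74.4). The share of all genes without overlap as TPM is not given here. RGS3 was lower without overlap in both comparisons on both scales, with and without the libraries that stand apart. Its fall with the degrader was part of the choice of members, so that side carries no weight. In the knockout 18.0% of all genes were lower without overlap as FPKM over all libraries.

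The scaling of the libraries moves small changes. With total counts in place of TMM, the median of all genes shifted by −0.14 (log2) in the degrader comparison and by −0.16 in the knockout comparison, and the share of calls that were higher went from 34.4% to 11.6% and from 36.7% to 4.82%. RGS10 then had a knockout log2 fold change of −0.07 in place of 0.13, or 0.07 relative to that median. Relative to it, RGS1 and RGS3 were at −3.70 and −1.85 with the degrader and at −0.51 and −0.34 in the knockout, and RGS12 was at 0.51 and 0.23.

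Of the 15 other RGS genes listed, 5 had enough counts to be tested with the degrader and 6 in the knockout. Over all libraries edgeR called none in either comparison, against 4.76% and 17.0% of all genes (0 and 2 had an unadjusted p under 0.05). DESeq2 called none with the degrader and 1, RGS20, in the knockout. RGS6 and RGS20 are named for their values. RGS6, of the R7 type that pairs with the G beta 5 subunit, measured 5.19, 5.58, 5.81 and 5.14 FPKM in NTC and 6.27, 2.72, 2.88 and 2.98 FPKM in p300 KO. On this scale replicate 1 lay above all NTC libraries and the other 3 well below them. As TPM all 4 lay below NTC, replicate 1 at 6.29, the other 3 at 7.68 to 8.14 and NTC at 14.4 to 15.9. The TPM total again includes the mitochondrial genes, which took 47.7% of the counts in p300 KO replicate 1. The knockout log2 fold change was −0.46 ± 0.30 (adjusted p = 0.295, edgeR), and −0.93 ± 0.06 without replicate 1 (adjusted p = 1.24e-16, edgeR). With the degrader RGS6 was at 0.04 ± 0.40 (adjusted p = 0.981, edgeR), and at −0.55 ± 0.15 without degrader replicate 2 (adjusted p = 0.0115, edgeR). RGS20, of the RZ type like RGS19, measured 2.32, 2.22, 2.38 and 1.93 FPKM in NTC and 1.68, 1.76, 1.40 and 1.20 FPKM in p300 KO. Its log2 fold change was −0.50 ± 0.16 (adjusted p = 0.0597, edgeR), and −0.61 ± 0.12 without replicate 1 (adjusted p = 8.44e-05, edgeR).

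Around the RGS genes, 162 genes of G protein signalling were listed, from receptors to cyclic AMP targets. With the degrader, 101 of them were tested and 13 were called (12.9%, against 4.76% of all genes), 3 higher and 10 lower (all genes, 1.64% higher and 3.12% lower). Without degrader replicate 2 it was 18 higher and 22 lower (39.6%, against 38.5% of all genes, 18.2% higher and 20.3% lower). In the knockout 110 were tested and 21 called (19.1%, against 17.0%), 11 higher and 10 lower (all genes, 6.23% higher and 10.7% lower), and without p300 KO replicate 1 it was 27 higher and 23 lower of 111, against 40.9% of all genes. The shares were thus close to the background in both comparisons once the library that stands apart was left out.

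The receptors called over all libraries lay on the lower side in both comparisons. With the degrader 3 of 19 tested receptors of lymphoid cells were lower and none higher (all genes, 3.12% lower), and 7 of 19 were lower without degrader replicate 2 (all genes, 20.3%). In the knockout 5 of 21 were lower and none higher (all genes, 10.7% lower). The medians of the list were −0.24 and −0.22, against 0.05 and 0.02 over all genes. ADGRG5, an adhesion receptor, fell with the degrader (log2 fold change −1.86 ± 0.23, adjusted p = 0.00355, edgeR) and less in the knockout (−0.29 ± 0.08, adjusted p = 0.0406, edgeR), and the 2 effects differed by 1.51 in 1 fit over all 16 libraries (adjusted p = 0.00221, edgeR). GPR132, a receptor for lipids and metabolites, fell with the degrader by 0.94 on the log2 scale (−0.94 ± 0.15, adjusted p = 0.0104, edgeR), and so did the chemokine receptor CCR1 (−0.71 ± 0.14, adjusted p = 0.0272, edgeR). In the knockout the lower genes were LPAR2, a receptor for lysophosphatidic acid (−0.66 ± 0.12), the chemokine receptors CXCR3 (−0.55 ± 0.09) and CCR10 (−0.31 ± 0.08), and P2RY8 (−0.34 ± 0.09), a receptor that confines B cells to germinal centres. P2RY8 and the knockout value of ADGRG5 fall outside the naming rule and were added to complete the count. Without p300 KO replicate 1, GPR132 was called higher (log2 fold change 0.26, adjusted p = 0.00167, edgeR), so the receptors were then 7 lower and 1 higher (all genes, 21.8% lower and 19.1% higher).

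The subunits on which RGS proteins act were not called over all libraries. None of 9 tested G alpha genes passed with the degrader and none of 11 in the knockout, with 4 and 1 at an unadjusted p under 0.05 and 3 and 0 called by DESeq2, which called 7.85% and 17.5% of all genes. Nor were G beta and gamma genes, none of 9 and none of 11, with 4 and 4 at an unadjusted p under 0.05 and 1 and 1 called by DESeq2. Without degrader replicate 2, 18.2% of all genes were called higher and 20.3% lower. GNAI3, GNAI2 and GNA12 were then called higher with the degrader (log2 fold changes 0.38, 0.32 and 0.85), as were GNG7, GNG10, GNB2 and GNB4. GNG4 and GNB3 were called lower. Without p300 KO replicate 1 (all genes, 19.1% higher and 21.8% lower), GNA12, GNAI1, GNAI3, GNG7, GNB4 and GNB5 were called higher in the knockout and none lower. These names were chosen after their values were seen.

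Proteins with a related RGS homology domain and modulators of the G protein cycle included called genes in the knockout. There, 17.0% of all genes were called, 6.23% higher and 10.7% lower. With the degrader none of 14 and none of 6 was called (all genes, 4.76%). An unadjusted p under 0.05 was found for 3 and 2, and DESeq2 called 3 and 2 (all genes, 7.85%). Without degrader replicate 2, 1 RGS homology gene was called higher and 2 lower, and 3 modulators higher (all genes, 18.2% higher and 20.3% lower). In the knockout 3 of 14 RGS homology genes rose: ARHGEF11 (log2 fold change 0.57 ± 0.07, adjusted p = 0.00115, edgeR), the kinase anchor AKAP10 (0.47 ± 0.11) and the sorting nexin SNX14 (0.23 ± 0.06). Among 6 modulators, RIC8B, a chaperone of Gs and Golf alpha subunits, rose (0.95 ± 0.22, adjusted p = 0.0168, edgeR), GPSM3 rose (0.28 ± 0.08) and RIC8A, the chaperone of Gi, Gq and G12 alpha subunits, fell by 0.45 on the log2 scale (−0.45 ± 0.13, adjusted p = 0.0384, edgeR). Without p300 KO replicate 1 the calls were 5 higher and 1 lower among the RGS homology genes. Among the modulators they were 3 higher and 1 lower (all genes, 19.1% higher and 21.8% lower). The difference between the comparisons was not past the threshold for these 6 genes in the fit over all 16 libraries.

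Effectors and cyclic AMP genes changed in both directions. With the degrader, ADCY7, an adenylyl cyclase prominent in immune cells, fell (log2 fold change −0.80 ± 0.13, adjusted p = 0.013, edgeR), and so did RAP1GAP2, which inactivates the small G protein Rap1 (−0.68 ± 0.14, adjusted p = 0.0292, edgeR). RAP1GAP2 also fell in the knockout (−0.33 ± 0.07, adjusted p = 0.0118, edgeR), while the phospholipase PLCB3 (0.58 ± 0.15) and the cyclase ADCY6 (0.40 ± 0.11) rose there. These were 2 lower of 12 effectors tested with the degrader (all genes, 3.12% lower). In the knockout they were 2 higher and 1 lower of 13 (all genes, 6.23% higher and 10.7% lower). Without degrader replicate 2 it was 1 higher and 2 lower of 12 (all genes, 18.2% higher and 20.3% lower). Without p300 KO replicate 1 it was 3 higher and 5 lower of 14 (all genes, 19.1% higher and 21.8% lower).

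Of 27 cyclic AMP genes tested with the degrader, 3 were higher and 5 lower, and 6 and 8 without degrader replicate 2 (all genes, 1.64% and 3.12%, then 18.2% and 20.3%). PDE7A, which degrades cyclic AMP, fell (log2 fold change −0.97 ± 0.11, adjusted p = 0.0029, edgeR), as did the cyclic AMP responsive transcription factor NR4A1 (−1.29 ± 0.20, adjusted p = 0.01, edgeR). PKIA, an inhibitor of protein kinase A, rose (1.03 ± 0.22, adjusted p = 0.0346, edgeR). The others called, named after their values were seen, were PRKACA (0.48) and PRKAR1B on the higher side and SIK1 (−1.14), PER1 (−0.66) and PDE4A (−0.65) on the lower. Of 28 tested in the knockout, 4 were higher and 3 lower, and 9 and 7 without p300 KO replicate 1 (all genes, 6.23% and 10.7%, then 19.1% and 21.8%). PRKAR1B, a regulatory subunit of protein kinase A, fell (−0.49 ± 0.08, adjusted p = 0.0031, edgeR), as did CREM, a factor that binds cyclic AMP response elements (−0.40 ± 0.08, adjusted p = 0.0127, edgeR), and CRTC1, a coactivator of the factor CREB, rose (0.52 ± 0.11, adjusted p = 0.0135, edgeR). The others called, also named after their values were seen, were CRTC3 (0.36), CREB1 (0.33) and SIK2 (0.24) on the higher side and ATF1 (−0.36) on the lower. PRKAR1B was higher with the degrader (0.42 ± 0.09, adjusted p = 0.0366, edgeR), so its change had opposite signs in the 2 comparisons (difference −0.95, adjusted p = 0.000129 in the edgeR fit over all 16 libraries).

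Many of these calls rest on small margins. With total counts in place of TMM none of the 13 genes called with the degrader was still called (adjusted p from 0.0742 for ADGRG5 to 0.891, edgeR), and of the 21 called in the knockout 3 were (LPAR2, RIC8B and PRKAR1B), ARHGEF11 for one being at an adjusted p of 0.26. DESeq2 called all 13 and all 21. Of the genes called with the degrader, ADGRG5 and PDE7A were called in all 8 fits that left out 1 library, GPR132 in 6, NR4A1 in 5, ADCY7 in 4, RAP1GAP2 in 2, and CCR1 and PKIA only without degrader replicate 2. In the knockout ARHGEF11, LPAR2, CXCR3, RAP1GAP2, PRKAR1B, CREM and CRTC1 were called in all 8, RIC8B in 6, AKAP10 in 5, PLCB3 in 4 and GPSM3 in 2. SNX14, RIC8A, CCR10, P2RY8, ADGRG5 and ADCY6 were called in 1 of the 8, the one without p300 KO replicate 1. Of the genes added after their values were seen, SIK1, ATF1 and CRTC3 were called in 2, 2 and 3 of the 8, and PRKACA, PER1, PDE4A, CREB1 and SIK2, as well as PRKAR1B with the degrader, in 1.

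**Figure D3:**
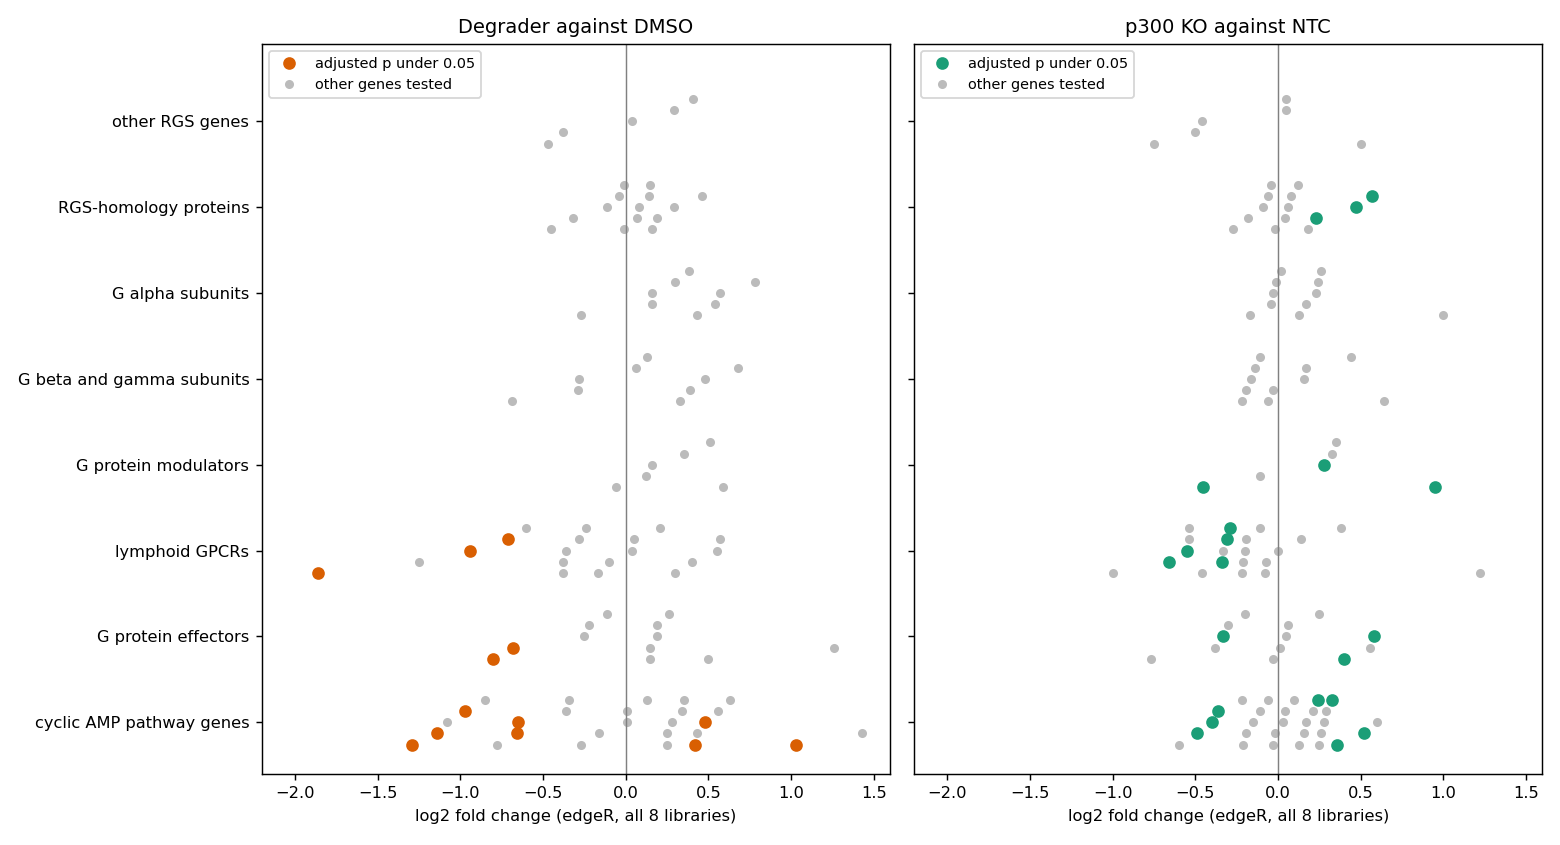
Log2 fold changes (horizontal axes) of the tested genes of 8 lists of G protein signalling, for the degrader (against DMSO) and the knockout (against NTC) over all 8 libraries of each. Each point is a gene, coloured where its adjusted p is under 0.05, and the height within a list only separates points. The called receptors lie on the lower side in both comparisons, and no gene of the subunit lists is coloured.

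Markers of other cells also moved, at low levels. The 8 T cell markers summed to 14.1 to 16 FPKM in DMSO and 4.85 to 10.7 with the degrader, and to 20.6 to 23.0 in NTC and 11.9 to 15.4 in p300 KO. Of these 8, 6 had fewer than 10 counts in every library, and each drop rests on 1 gene. CD3E fell with the degrader (log2 fold change −0.98, adjusted p = 0.0348, edgeR), where TRAC was at 0.56, and TRAC fell in the knockout (−1.13, adjusted p = 0.000148, edgeR), where CD3E was at 0.04. The 6 monocyte markers summed to 0.295 to 0.678 FPKM in DMSO and 0.777 to 1.67 with the degrader, and to 2.22 to 3.22 in NTC and 1.34 to 1.65 in p300 KO. The 5 NK cell markers summed to 7.05 to 7.65 FPKM in DMSO and 4.89 to 7.43 with the degrader, and to 24.5 to 25.5 in NTC and 16.9 to 23.5 in p300 KO.

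The 8 earlier B cell markers summed to 2.82 to 3.51 FPKM in DMSO and 2.59 to 5.82 with the degrader, and to 4.11 to 4.52 in NTC and 2.52 to 3.62 in p300 KO. In the knockout 4 of 7 tested were lower, and 7 of 7 without p300 KO replicate 1, against 10.7% and 21.8% of all genes. Of the 11 plasma cell markers, 2 were lower with the degrader (all genes, 3.12%) and none higher. Without degrader replicate 2, 3 were lower and 3 higher (all genes, 20.3% lower and 18.2% higher). In the knockout 6 were lower and none higher (all genes, 10.7% lower). Without p300 KO replicate 1, 8 were lower and 1 higher (all genes, 21.8% lower and 19.1% higher). The part of these shifts in the receptor and RGS results was not tested, and in bulk RNA fewer cells of a type and less RNA per cell cannot be told apart.

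Over the 14 libraries without degrader replicate 2 and p300 KO replicate 1, the genes most like RGS3 by the Pearson correlation of log2 CPM, among 9048 genes, were KIF21B (0.992), SEMA4D (0.988), BHLHE40 (0.980), MAPKAPK2 (0.980) and ITGAL (0.978). KIF21B is a kinesin, SEMA4D a semaphorin of lymphocytes, BHLHE40 a transcriptional repressor, MAPKAPK2 a stress kinase and ITGAL an integrin subunit. Mean levels in DMSO and with the degrader were 7.25 and 3.72 FPKM for KIF21B, 6.13 and 1.94 for SEMA4D, 12.4 and 1.83 for BHLHE40, 105.0 and 52.7 for MAPKAPK2, and 117.0 and 62.3 for ITGAL. The likeness is mostly the step between the degrader libraries and the rest, since within groups the correlations were 0.416, 0.281, 0.220, 0.635 and 0.260 in the same order. None of the 5 was called in the knockout, with adjusted p from 0.214 to 0.794 (edgeR). Over all 16 libraries the 5 correlations ran from 0.937 for KIF21B to 0.982 for MAPKAPK2 and ITGAL.

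**Figure D4:**
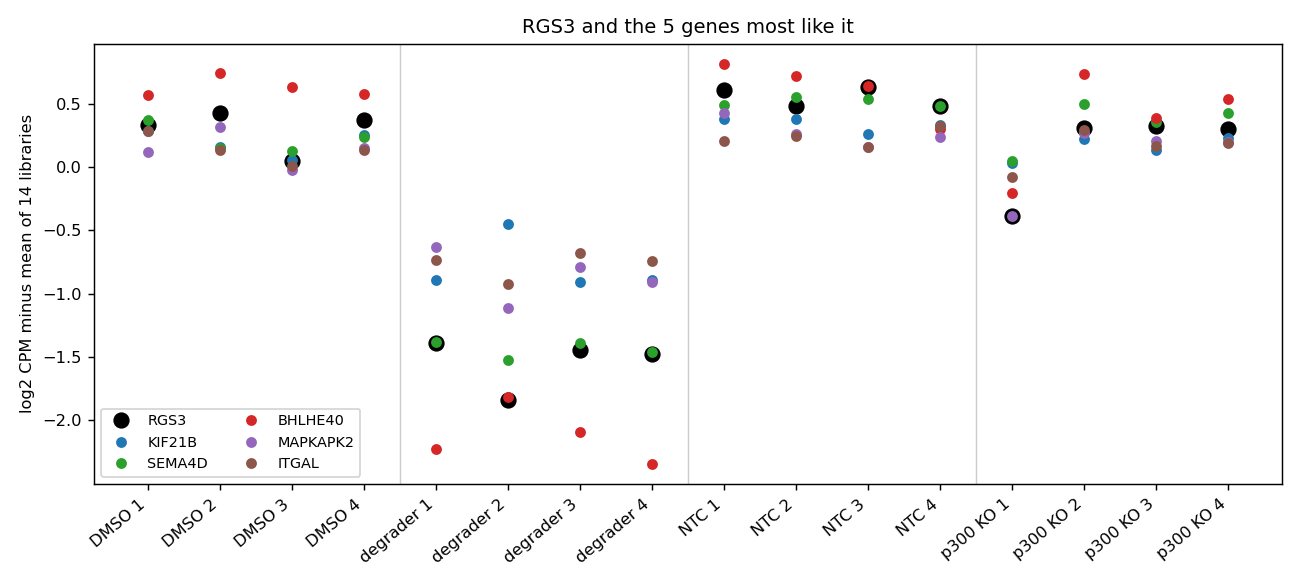
Log2 CPM of RGS3 (large black points) and the 5 genes most like it in each of the 16 libraries, as the difference from the mean of the 14 libraries used to choose them (vertical axis). All 6 genes lie below 0 in the 4 degrader libraries. In p300 KO replicate 1, which was not used for the choice, all 6 lie lower than in the other knockout libraries.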

How the data were processed

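Whole-number read counts per gene and the gene lengths were deposited for 16 NCI-H929 libraries, per the file headers. The submitters' processing notes name GRCh38, STAR 2.5.2b as well as Trimmomatic 0.36, Subread 1.5.2 with featureCounts, and also DESeq2 1.16.1. Strand setting and annotation release were not given in the sources used here. Of 57500 gene identifiers, 40907 had a symbol in the reference table, and 96.1% had the position of GENCODE release 29.

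Each comparison was fitted on its own 8 libraries with edgeR 4.0.16 (filterByExpr, TMM, quasi-likelihood test, Benjamini-Hochberg over all genes, adjusted p under 0.05). A log2 fold change below 0 is lower in treated or knockout cells, and SE is the log2 fold change over the root of F. The scripts were tested on simulated data. The floor of 3 counts was 0.13 to 0.238 CPM, covering counting error only. FPKM used TMM over all 16 libraries and the deposited lengths.

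The members and lists were chosen with earlier results of these data known. Named were the members, EP300, up to 3 called genes per list and comparison by p, and the 5 genes most like RGS3 (mean log2 CPM of at least 3, prior count 2). Alternatives were DESeq2 1.42.0, total counts, no filter, mitochondrial genes removed, a replicate block, 1 fit over all libraries, and leaving out each library.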

Additional observations from a re-analysis of the deposited data

Results flagged for a closer look

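In 7 of 44 groups of 4 libraries (11 genes in 4 groups), 1 library lay far from the other 3 by Dixon's 95% critical value of gap over range. Chance flags about 1 in 20 groups, and all 7 were in degrader replicate 2 or p300 KO replicate 1, the libraries with the most mitochondrial counts. In degrader replicate 2, RGS16 was at 86.0 FPKM (others 29.3 to 30.6), RGS14 at 9.95 (others 21.0 to 23.0), RGS10 at 18.1 (others 24.1 to 25.1), RGS6 at 3.90 (others 1.31 to 1.55) and EP300 at 10.6 (others 4.33 to 4.52). In p300 KO replicate 1, RGS3 was at 1.11 FPKM (others 1.79 to 1.82) and RGS6 at 6.27 (others 2.72 to 2.98).

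The knockout effect minus the degrader effect was taken from 1 edgeR fit over all 16 libraries. It passed an adjusted p of 0.05 for 10 of 34 genes examined. The members were not among the 34, which were EP300, RGS6, RGS20 and the signalling genes called in either comparison. Those signalling genes were chosen by calls in these same libraries, and the share of all genes passing is not given here. The difference was above 0 for ADGRG5 (1.51, adjusted p = 0.00221), NR4A1 (1.5, adjusted p = 0.000651), GPR132 (1.04, adjusted p = 0.0128), PDE7A (0.90, adjusted p = 0.00148), ADCY7 (0.83, adjusted p = 0.0317) and CCR1 (0.60, adjusted p = 0.0362). It was below 0 for EP300 (−2.07, adjusted p = 0.00361), LPAR2 (−1.11, adjusted p = 0.0215), ATF1 (−1.03, adjusted p = 0.0101) and PRKAR1B (−0.95, adjusted p = 0.000129).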

How the results depend on the processing

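With the degrader 755 genes were called, and 1535 with DESeq2, 164 with total counts, 394 without a filter, 2294 in 1 fit over all 16 libraries, and 197 to 6278 when 1 library was left out, the highest without degrader replicate 2. The number of signalling genes called there was 13, and 24, 2, 5 and 30 under the same 4 alternatives, of which 13, 0, 5 and 13 were among the 13, and 2 to 40 with 1 library left out. In the knockout 2944 genes were called, and 1265 with total counts, 1484 in the fit over all libraries, and 1542 to 7246 with 1 library left out. Signalling genes called there were 21, and 7 with total counts (3 of the 21), 12 without a filter (11 of the 21), 9 in the fit over all libraries (all among the 21) and 7 to 50 with 1 library left out. The 0 members called in the knockout became 0 to 4 with 1 library left out, the 4 only without p300 KO replicate 1. With a replicate block 24 genes and 0 signalling genes were called with the degrader, and 1304 and 7 in the knockout. Same-numbered libraries did not deviate together (correlations −0.433 to 0.126 and −0.177 to 0.019). Degrader replicate 2 and p300 KO replicate 1 entered these deviations, so whether the numbers pair the libraries cannot be told from them. Near 0, signs turned: RGS10 in the knockout was −0.07 with total counts, and RGS6 with the degrader was −0.35 with total counts and −0.13 with the replicate block. With 1 library left out, RGS6 with the degrader ran from −0.55 (called, without degrader replicate 2) to 0.23, and in the knockout RGS2 ran from −0.10 to 0.21, RGS16 from −0.13 to 0.03 and RGS19 from −0.08 to 0.05. The cause was not tested. Over all 14 alternatives RGS3 with the degrader stayed between −1.94 and −1.78 and RGS1 between −4.13 and −3.23. As TPM or with mitochondrial genes out of the library size, 54 of 64 mean member levels moved by over 1 SD. Both alternatives change the scale of the values, so such moves were built in and do not measure how firm the levels are. RGS2 and the degrader values of RGS1 rest on few counts.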
